A study of Mus musculus with 4 samples.

Results

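Kinesins are motor proteins that use ATP to walk along microtubules or to take them apart. The rows of the deposited expression table were chosen by gene symbol alone, as those that start with Kif or Kifc followed by a digit. This gave 44 of 24346 rows. Of these, 12 are kinesins of the mitotic spindle and of cytokinesis (Kif2c, Kif4, Kif11, Kif14, Kif15, Kif18a, Kif18b, Kif20a, Kif20b, Kif22, Kif23 and Kifc1), and the other 32 were kept as transport and other kinesins. Among the 32 are 3 rows that encode no motor: Kif1bp, a binding partner of kinesins, the opposite-strand transcript Kif16bos and the pseudogene Kif4-ps.

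RNA was sequenced from endothelial cells that had been sorted by flow cytometry from hearts of mice labelled young, on the C57BL/6 background, and the labels call the cells freshly isolated. There were 2 libraries of the genotype ECp53KO (ECp53KO_170 and ECp53KO_172) and 2 labelled wild type (Ctrl_178 and Ctrl_182). ECp53KO is not spelled out in the labels. From the series title it is read here as endothelial loss of p53. The sources used here give no allele, no promoter of a Cre, no sex and no exact age, and they name no treatment. Whether the libraries came from different mice is not stated, and p-values therefore measure only the spread between these libraries, which may be technical. All levels are FPKM as deposited, that is fragment numbers scaled to transcript length and library size, and pairs of values follow the order in which the libraries are named here. Trp53, the targeted gene, was 4.41 FPKM in ECp53KO_170 and 2.45 in ECp53KO_172, beside 52.1 in Ctrl_178 and 28.8 in Ctrl_182. All 12 endothelial markers examined were present in every library, the lowest being Vwf at 19.5 to 28.3 FPKM. Estimated depth was 9700000 to 11200000 fragments in 3 libraries and 22300000 in Ctrl_182.

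In dividing cells, mitotic kinesins push the spindle poles apart, shorten and steer microtubules at chromosomes, and build the central spindle that guides cytokinesis. Their genes are transcribed mainly in G2 and mitosis, under promoters that often hold a short element called the cell cycle genes homology region (CHR) and CCAAT boxes. Transport kinesins carry vesicles, endosomes, mitochondria and ciliary cargo in resting cells too, usually with light chains or other adaptors. Most endothelial cells of the heart do not divide.

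For all 12 mitotic kinesins, both ECp53KO libraries lay below both Ctrl libraries. Over the 16809 genes of the table above 0 in at least 1 library, 17.2% were lower in this way. The levels of the 12 added up to 9.06 and 10.8 FPKM in ECp53KO beside 30.8 (Ctrl_178) and 20 (Ctrl_182). That sum averaged 9.92 ± 1.22 FPKM in ECp53KO and 25.4 ± 7.64 FPKM in Ctrl (SD, n = 2 per group), a Ctrl to ECp53KO ratio of 2.56. The other 32 rows added up to 241 and 318.5 FPKM in ECp53KO beside 313 and 315 in Ctrl, a ratio of 1.12. In these bulk samples, fewer dividing cells and less of the RNA per cell cannot be told apart.

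No single kinesin passed the test. By limma on log2(FPKM + 1), with Benjamini-Hochberg adjustment over all 11332 genes that averaged 1 FPKM or more, 0 of the 8 mitotic and 0 of the 14 other rows above that mean had an adjusted p under 0.05. Over all tested genes 0.0882% were called lower and 0.0265% higher. At an unadjusted limma p under 0.05, 4 of those 8 mitotic kinesins were lower, against 2.82% of all tested genes, and 0 of the 14 other rows were lower or, against 1.97% of all, higher. All 8 of these mitotic kinesins and 10 of the 14 other rows had a negative log2 fold change, as did 48.3% of all tested genes. The filter on the mean can keep a gene through its Ctrl values alone, so the counts over the 8 are no support. In the fit with no filter on low values, which tests all 12, 8 were lower at an unadjusted limma p under 0.05 (3.22% of all 16809 genes were) and 0 passed adjustment (0.0416% lower and 0.00595% higher over all). Permuting 2 against 2 libraries exactly gives no two-sided p under 0.333, so it could not separate any gene. Trp53 itself did not pass in the fit on genes averaging 1 FPKM or more (limma adjusted p = 0.1465). It passed with small RNA loci left out (limma adjusted p = 0.0127), where 0 kinesins did. A kinesin that did not pass is therefore not shown to be unchanged.

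The median log2 fold change, ECp53KO minus Ctrl, was -0.73 over the 12 mitotic kinesins and -0.06 over the other 32 rows, and 0.01 over all tested genes. The 32 include 5 rows listed at 0 in every library, whose fold change is 0. Over the rows with a mean of at least 1 FPKM the medians were -0.81 for the 8 mitotic kinesins and -0.16 for the 14 other rows. Since that filter can keep a gene through its Ctrl values alone, the median over the 8 is no support either. On the log2(FPKM + 1) scale the change of genes with low values is understated. With a pseudocount of 0.1 in place of 1 the medians over the 12 and the 32 were -1.35 and -0.18. Of the mitotic kinesins, 9 lay below the 5th percentile of all tested genes, a log2 fold change of -0.55, and 0 of the other rows did. The percentile pools tested genes of all levels. Kif15, Kif2c and Kifc1 among the 9, and the other rows with a mean under 1 FPKM, are not tested genes. Whether the 2 subsets differ was not tested, since their members are not replicates.

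**Figure D1:**
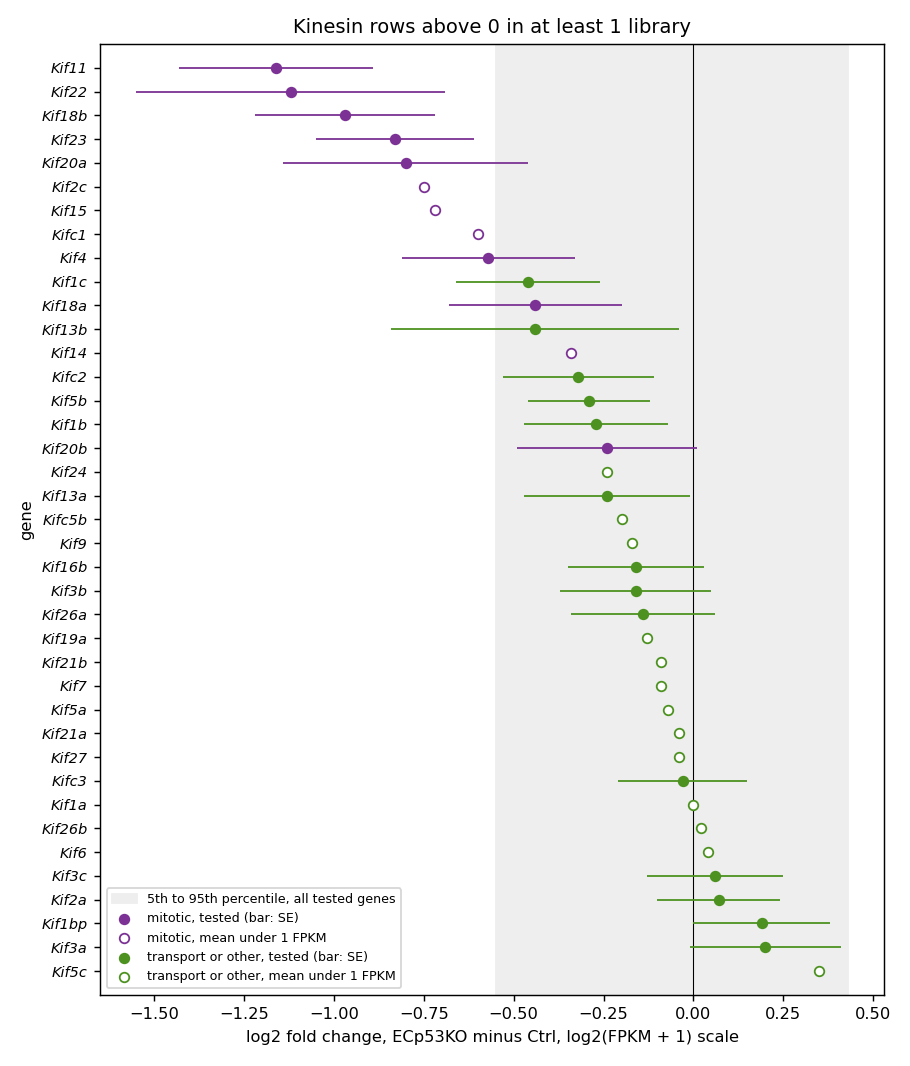
Log2 fold change (x axis, ECp53KO minus Ctrl on the log2(FPKM + 1) scale) of the kinesin rows above 0 in at least 1 library, with bars for the SE of tested genes and open circles for genes with a mean under 1 FPKM. The mitotic kinesins lie between -1.16 and -0.24, and the other rows between -0.46 and 0.35.

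The promoters of the kinesins were examined for the 2 elements named above. Genes of the mitotic kind often hold these elements, so their share in the mitotic windows is a property of the list and no result about ECp53KO. RefSeq promoter windows (GRCm38.p6, 250 bases before to 50 after the start) were found for 35 of the 44 rows, 11 of them mitotic. The CHR core, searched as TTTGAA on both strands, was present in 10 of 11 mitotic windows. It was present in 4 of 24 of the other genes with a window and in 20.2% of all 27025 genes. None of the 10 other rows with a window and a mean of at least 1 FPKM held it (0 of 10). The CCAAT box, searched as CCAAT on both strands, was in 7 of 11 mitotic windows, in 11 of 24 of the others and in 41.1% of all genes. Both motifs stood in 7 of 11 mitotic windows and in 7.97% of all genes. The 2 motifs were counted separately, and in these windows 0 pairs of matches shared a base. A match is a run of letters and does not show that a factor binds there.

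In the stretches below, matches to either motif are in capitals (TTCAAA and ATTGG are the same motifs read on the opposite strand). The stretch from 100 bases before to 50 after the start is printed for 6 of the mitotic kinesins that hold the CHR core within it. They are Kif11 (chr19:37376282-37376431, plus strand), Kif18b (chr11:102925075-102925224, minus), Kif22 (chr7:127042371-127042520, minus), Kif23 (chr9:61946750-61946899, minus), Kifc1 (chr17:33890584-33890733, minus) and Kif15 (chr9:122950981-122951130, plus).
Kif11: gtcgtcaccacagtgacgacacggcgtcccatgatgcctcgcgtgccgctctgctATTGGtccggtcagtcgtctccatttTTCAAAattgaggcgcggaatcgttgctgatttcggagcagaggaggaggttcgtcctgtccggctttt
Kif18b: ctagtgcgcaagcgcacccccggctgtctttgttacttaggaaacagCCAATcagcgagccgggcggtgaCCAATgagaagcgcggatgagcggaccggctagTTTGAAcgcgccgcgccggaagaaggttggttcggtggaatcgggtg
Kif22: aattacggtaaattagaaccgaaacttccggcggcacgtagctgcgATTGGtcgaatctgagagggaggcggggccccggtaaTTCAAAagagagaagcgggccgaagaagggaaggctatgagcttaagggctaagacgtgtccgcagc
Kif23: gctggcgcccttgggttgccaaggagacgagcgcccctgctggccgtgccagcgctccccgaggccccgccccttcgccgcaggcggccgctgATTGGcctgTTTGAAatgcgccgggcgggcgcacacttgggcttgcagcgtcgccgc
Kifc1: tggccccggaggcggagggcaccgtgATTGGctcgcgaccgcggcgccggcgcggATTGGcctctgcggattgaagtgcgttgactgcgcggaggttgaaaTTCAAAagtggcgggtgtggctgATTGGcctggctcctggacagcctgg
Kif15: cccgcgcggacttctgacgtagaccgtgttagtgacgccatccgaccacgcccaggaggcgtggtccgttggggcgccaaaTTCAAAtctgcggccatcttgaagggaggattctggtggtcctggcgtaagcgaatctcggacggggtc

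In these 6 the CHR core nearest to the start began between position -19 (Kif11 and Kif15) and position 4 (Kif18b), where the first transcribed base is 1. Kif4 and Kif20b, which are not printed, also held it within this stretch but further into the transcript, Kif4 at position 20 and Kif20b at 8 and 14. Kif2c held it at position -103 and Kif14 at -228. For comparison, the same stretch is printed for Kif18a (chr2:109280638-109280787, plus), the 1 mitotic kinesin with a window and no match to either motif, and for Kif1c (chr11:70700448-70700597, plus), an abundant transport kinesin, also without a match.
Kif18a: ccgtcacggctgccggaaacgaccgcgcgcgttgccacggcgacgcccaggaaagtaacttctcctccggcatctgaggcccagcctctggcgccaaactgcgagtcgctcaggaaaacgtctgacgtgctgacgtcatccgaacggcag
Kif1c: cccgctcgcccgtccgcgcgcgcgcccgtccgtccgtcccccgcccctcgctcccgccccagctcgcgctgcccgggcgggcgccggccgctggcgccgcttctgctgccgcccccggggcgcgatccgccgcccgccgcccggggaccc

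**Figure D2:**
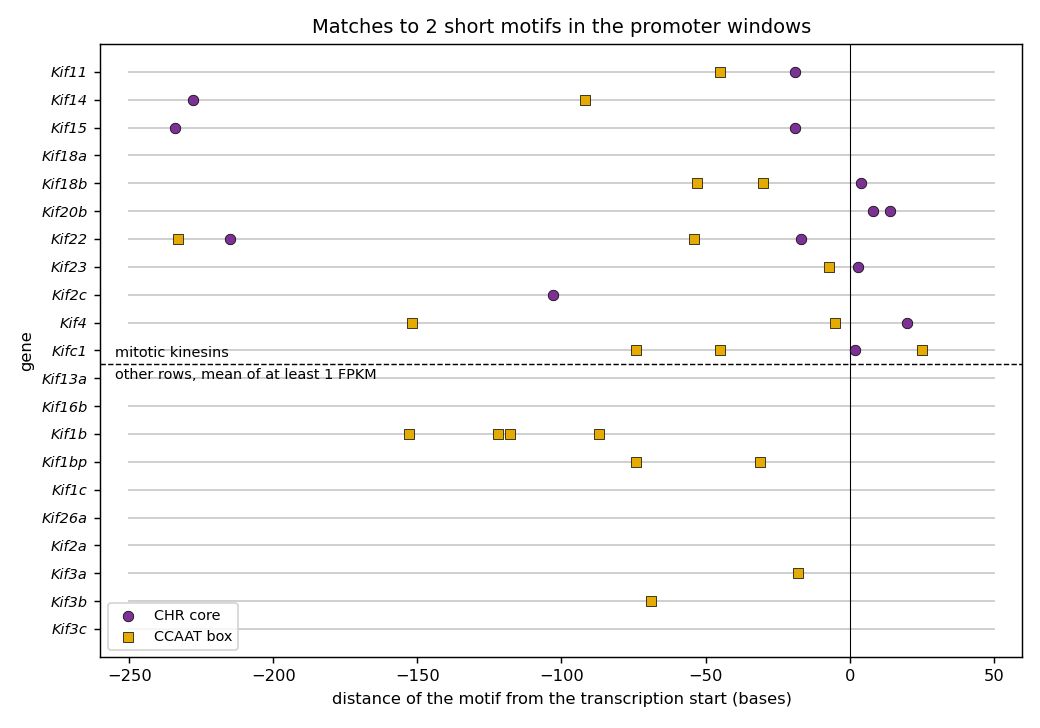
Matches to the CHR core and the CCAAT box by distance from the transcription start (x axis, bases) in the promoter windows of 11 mitotic kinesins (above the dashed line) and of 10 other rows with a mean of at least 1 FPKM (below it). The CHR core is found in 10 of 11 windows above the line and 0 of 10 below it, where Kif1b is drawn with its 2 windows on 1 line.

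Kif11, Kif15 and Kifc1 set up the spindle. Kif11, the kinesin-5 that slides antiparallel microtubules apart to make the spindle bipolar, was 0.635 FPKM in ECp53KO_170 and 0.689 in ECp53KO_172, beside 3.38 in Ctrl_178 and 2.14 in Ctrl_182. Its lowest Ctrl value was 3.1 times its highest ECp53KO value, and the ECp53KO libraries lay close together. The log2 fold change was -1.16 ± 0.27 (SE), with an unadjusted p of 0.00697 and a limma adjusted p of 0.864. Kif15, a kinesin-12 that can support spindle bipolarity beside Kif11, stood at 0.247 and 0.243 FPKM against 1.52 and 0.661 FPKM. Its groups did not overlap either, though Ctrl_178 was 2.3 times Ctrl_182. Kifc1, a minus-end-directed kinesin-14 that gathers microtubules at the poles, stood at 0.423 and 0.751 FPKM against 1.56 and 1.23 FPKM. Kifc1 is uncertain, because 38% of the 51-base windows of its transcripts, the length of a read, are also in Kifc5b, which stood at 0.168 and 0.579 against 0.665 and 0.46 FPKM.

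Among the motors that act on microtubule ends, the Ctrl to ECp53KO ratio was larger in Kif18b and Kif2c than in Kif18a, a difference that was not tested. Kif18b, which controls the length of astral microtubules, stood at 0.26 and 0.448 FPKM in ECp53KO beside 1.73 and 1.57 in Ctrl. This was the widest gap of the 12, with the lowest Ctrl value 3.5 times the highest ECp53KO value. Its log2 fold change was -0.97 ± 0.25 (SE), with an unadjusted p of 0.0113 and a limma adjusted p of 0.864. Kif2c, a depolymerase at centromeres that helps to correct wrong attachments, stood at 0.31 and 0.392 FPKM against 1.61 and 0.973 FPKM. Kif18a, which aligns chromosomes by damping the plus ends of kinetochore microtubules, stood at 0.746 and 0.768 FPKM against 1.29 and 1.49 FPKM. It was the 1 member of the 12 whose level was higher in Ctrl_182 than in Ctrl_178. Its log2 fold change was -0.44 ± 0.24 (SE, limma adjusted p = 0.864).

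The chromokinesins Kif22 and Kif4 bind chromosome arms. Kif22, which pushes the arms towards the spindle equator, was 0.831 FPKM in ECp53KO_170 and 2.31 in ECp53KO_172, beside 6.24 in Ctrl_178 and 2.97 in Ctrl_182. The groups did not overlap, but the libraries of each group were far apart, 2.78 times in ECp53KO and 2.1 times in Ctrl. On the log2 scale the difference was -1.12 ± 0.43 (SE), with an unadjusted p of 0.0449 and a limma adjusted p of 0.864. Kif4, which also limits the length of the central spindle together with Prc1, stood at 1.25 and 1.22 FPKM against 2.73 and 1.96 FPKM. Its log2 fold change was -0.57 ± 0.24 (SE, limma adjusted p = 0.864). The libraries keep no strand, and Kif4 shares 832 exon bases with Pdzd11 on the opposite strand, which stood at 25.2 and 17.2 against 21.3 and 24.1 FPKM.

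Of the motors of the central spindle and of cytokinesis, Kif23 was the most abundant of the 12. Kif23, which forms the centralspindlin complex with Racgap1, stood at 2.53 and 1.89 FPKM in ECp53KO beside 5.24 and 4.18 in Ctrl. It averaged 2.21 ± 0.452 FPKM in ECp53KO and 4.71 ± 0.75 FPKM in Ctrl (SD, n = 2 per group), and its log2 fold change was -0.83 ± 0.22 (SE), with an unadjusted p of 0.0126 and a limma adjusted p of 0.864. Here ECp53KO_172 was the lower of the ECp53KO libraries. Kif20a, which brings the chromosomal passenger complex to the midzone, stood at 0.921 and 1.11 FPKM against 3.64 and 1.64 FPKM. Its high value in Ctrl_178 was 2.22 times that in Ctrl_182, and the log2 fold change was -0.80 ± 0.34 (SE, limma adjusted p = 0.864). Kif20a shares 1271 exon bases with Cdc23 on the opposite strand, which stood at 16.5 and 13.7 against 13.3 and 13.1 FPKM.

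The remaining cytokinesis motors had the smallest ratio or were near the limit of detection. Kif20b stood at 0.774 and 0.96 FPKM in ECp53KO beside 1.41 and 1.001 in Ctrl, so that Ctrl_182 was 1.04 times ECp53KO_172. Its log2 fold change was -0.24 ± 0.25 (SE, limma adjusted p = 0.882). Kif14, which binds Prc1 and citron kinase at the midbody, stood at 0.14 FPKM in ECp53KO_170, was listed at 0 in ECp53KO_172, and stood at 0.49 and 0.228 FPKM in Ctrl. A listed 0 may also be an estimate that failed, so no fold is given for Kif14.

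**Figure D3:**
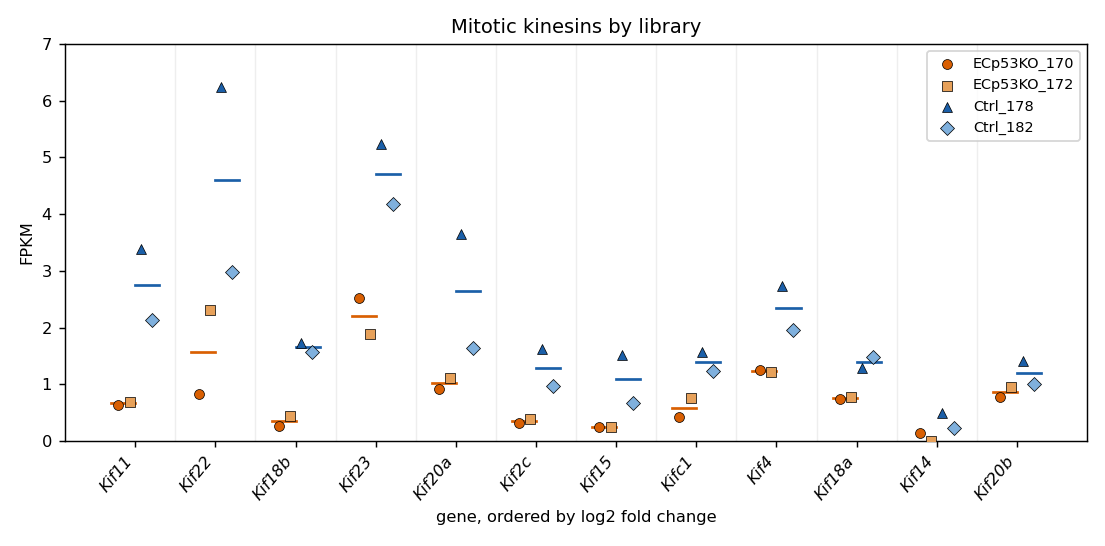
FPKM (y axis) of the 12 mitotic kinesins in each of the 4 libraries, ordered by log2 fold change, with short lines at the group means except for Kif14, which is listed at 0 in 1 library. Every Ctrl point lies above both ECp53KO points of its gene. Ctrl_178 is the higher Ctrl point in 11 of 12 genes, against 8349 of the 16809 genes above 0.

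From the ratios of group means, leaving out Kif14, Ctrl exceeded ECp53KO by 4.66 times in Kif18b, 4.46 in Kif15, 4.17 in Kif11, 3.69 in Kif2c, 2.93 in Kif22, 2.6 in Kif20a, 2.38 in Kifc1, 2.13 in Kif23, 1.9 in Kif4, 1.83 in Kif18a and 1.39 in Kif20b. Neighbours in this order were not tested against each other. Kif18a, without either motif, and Kif20b, with the CHR core at 2 places, had the smallest ratios. The estimated number of fragments behind a mitotic kinesin was 0 to 96 in the ECp53KO libraries, 41 to 199 in Ctrl_178 and 46 to 317 in Ctrl_182. These numbers are approximate, since the sources used here do not say which transcript length the authors used.

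Leaving out any 1 library kept the direction of the median. Without ECp53KO_170 the median of the 12 was -0.70, without ECp53KO_172 -0.73, without Ctrl_178 -0.50 and without Ctrl_182 -0.96. Ctrl_178 was the highest library in 11 of the 12, against 4241 of the 16809 genes above 0 in at least 1 library. Ctrl_182 was also above both ECp53KO libraries in all 12.

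The transport and other kinesins covered a far wider range of levels. Of the 32 rows, 14 had a mean of at least 1 FPKM, 13 lay above 0 with a lower mean, and 5 were listed at 0 in every library (Kif12, Kif17, Kif2b, Kif16bos and Kif4-ps). The 5 most abundant were Kifc3, Kif1c, Kif5b, Kif26a and Kif1b, each above 20 FPKM on average. Of the 27 rows above 0 in at least 1 library, 6 were lower and 1 was higher in ECp53KO without overlap between the groups, against 17.2% lower and 16.3% higher over all genes above 0. By limma none of the 14 tested rows (0 of 14) had an unadjusted p under 0.05. In the fit with no filter, an unadjusted p under 0.05 was reached by 1 of 27 on the lower side and 1 on the higher (3.22% and 2.17% over all genes), and 0 passed adjustment. Among the 14 with a mean of at least 1 FPKM, 3 were lower and 0 higher without overlap, against 16.8% and 19.1% of all tested genes.

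Kifc3, a minus-end-directed motor linked to adherens junctions, was the most abundant kinesin of all. It was 70.4 FPKM in ECp53KO_170 and 89.7 in ECp53KO_172, beside 82.3 in Ctrl_178 and 80.2 in Ctrl_182. The Ctrl values lay between those of ECp53KO, and the log2 fold change was -0.03 ± 0.18 (SE, limma adjusted p = 0.978). Kif26a, an atypical kinesin that lacks ATPase activity, likewise overlapped, at 28.1 and 39 against 37.2 and 35.7 FPKM. Kif5b, the widely expressed kinesin-1 heavy chain, stood at 28.5 and 35.3 FPKM against 38.4 and 39.7 FPKM. Its groups were separated by a factor of 1.09, with a log2 fold change of -0.29 ± 0.17 (SE, limma adjusted p = 0.864).

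The kinesin-3 motors carry vesicles and endosomes. Kif1c stood at 31.1 and 42.9 FPKM in ECp53KO beside 51.4 and 50.1 in Ctrl, without overlap. With a log2 fold change of -0.46 ± 0.20 (SE, limma adjusted p = 0.864), it had the lowest value among the other rows. Kif1b stood at 20.7 and 26.4 against 25.3 and 31.6 FPKM, with overlap. Kif13b stood at 4.05 FPKM in ECp53KO_170 and at 8.53 to 10.2 FPKM in the other 3 libraries. Kif13a (12.6 and 19.1 against 19.4 and 17.6 FPKM) had the same order of ECp53KO libraries, whereas Kif16b was higher in ECp53KO_170 (5.09 and 4.14 against 5.55 and 4.98 FPKM).

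The kinesin-2 motors Kif3a, Kif3b and Kif3c, which serve cilia and vesicles, did not separate the groups. Kif3a stood at 4.13 and 4.78 against 3.28 and 4.23 FPKM, and Kif3b at 5.91 and 8.17 against 8.61 and 7.26 FPKM. Kif3c stood at 4.32 and 5.15 against 4.13 and 4.87 FPKM. The depolymerase Kif2a, a close relative of the mitotic Kif2c that is also used outside mitosis, stood at 7.87 and 9.53 against 8.54 and 7.87 FPKM. Its log2 fold change was 0.07 ± 0.17 (SE, limma adjusted p = 0.943), beside -0.75 for Kif2c. Opposite-strand genes share 1229 exon bases with Kif2a (Dimt1), 2617 with Kif3c (1110002L01Rik) and 163 with Kifc2 (Cyhr1), so these levels are uncertain too. Kifc2, a minus-end-directed motor, stood at 1.88 and 2.35 against 2.94 and 2.82 FPKM, without overlap (log2 fold change -0.32 ± 0.21 SE, limma adjusted p = 0.864).

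**Figure D4:**
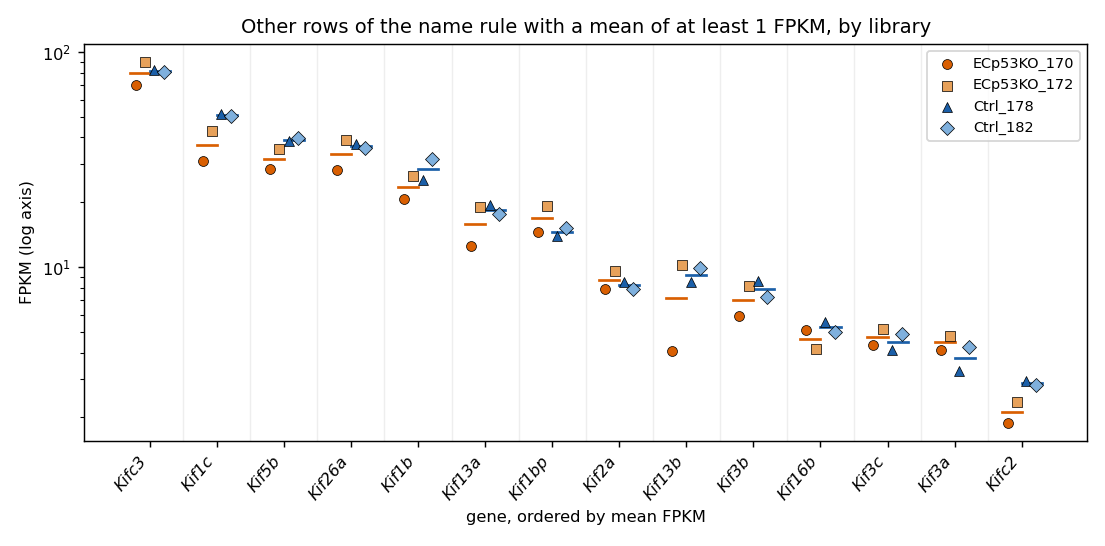
FPKM (y axis, log scale) of the 14 transport and other rows with a mean of at least 1 FPKM in each library, ordered by mean level, with short lines at the group means. ECp53KO_170 is the lowest point in 10 of 14 (3388 of all 11332 tested genes), while ECp53KO_172 lies among or near the Ctrl points in most.

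The lower values of the transport kinesins in ECp53KO were mostly those of 1 library. ECp53KO_170 was the lowest of the 4 libraries in 10 of these 14 rows, against 3388 of all 11332 tested genes. ECp53KO_172 was below the Ctrl mean in 5 of 14, against 5728 of the 11332. Among the mitotic kinesins ECp53KO_170 was lowest in 8 of 12, against 4378 of the 16809 genes above 0 in at least 1 library. In these kinesins ECp53KO_172 was below the Ctrl mean in 12 of 12, against 9031 of the 16809. Without ECp53KO_170 the median of the 32 other rows, 5 of them listed at 0 in every library, was 0.00. Across genes, levels in ECp53KO_170 relative to the mean of the libraries were lower for longer transcripts (Spearman's rho -0.43 over 11274 genes, which are not independent replicates). The longest transcripts of the 14 rows have a median of 6218 nucleotides and those of the 12 mitotic kinesins one of 3536. After removal of the length trend of each library the medians were -0.73 for the mitotic kinesins and -0.04 for the other rows.

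Some members of the other subset were near the limit of detection. Kif5c, a kinesin-1 heavy chain best known from neurons, was the 1 row higher in ECp53KO without overlap, at 0.503 and 0.493 FPKM against 0.217 and 0.131 FPKM. This was 2.86 times higher on estimated fragment numbers of 39 and 33 against 17 and 20. In the fit with no filter its unadjusted p was 0.0098 and its limma adjusted p 0.853. The other neuronal motors were lower still, with Kif5a at 0.123 FPKM or less, Kif21a at 0.105 or less and Kif1a at 0.00518 or less. Markers of Schwann cells and neurons summed to 0.986 and 0.89 FPKM in ECp53KO and to 1.04 and 0.752 FPKM in Ctrl, all 10 under 1 FPKM in every library, with Sox10, Nefm and Syt1 among those listed at 0. Of these 10 markers, 1 was higher and 1 lower without overlap (16.3% and 17.2% over genes above 0). The higher one was Mbp, at 0.476 and 0.36 against 0.198 and 0.225 FPKM, and the lower one was Tubb3. Their part in the Kif5c values was not tested.

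Kif24, which was placed among the other rows and is known as a centriolar kinesin, stood at 0.151 and 0.0693 FPKM in ECp53KO beside 0.377 and 0.245 in Ctrl. Its groups did not overlap, and its unadjusted p in the fit with no filter was 0.047 (limma adjusted p = 0.853). The promoter window of Kif24 held 4 CCAAT matches and no TTTGAA. Kif9, a kinesin of motile cilia, was also lower without overlap, at 0.128 and 0.19 against 0.334 and 0.265 FPKM. Kif27 completed the 6 rows, listed at 0 in both ECp53KO libraries and at 0.0398 and 0.0194 FPKM in Ctrl, about 2 fragments each. Kif7, a regulator of Hedgehog signalling in the cilium, stood at 0.754 and 1.06 against 1.08 and 0.974 FPKM, and Kif1bp at 14.5 and 19.2 against 13.9 and 15.1 FPKM. Kif19a, Kif21b, Kif26b and Kif6 stayed under 0.5 FPKM in every library.

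The partners of each subset were examined from lists of related genes. Of 23 genes for proteins that work with mitotic kinesins on the spindle and in cytokinesis, the log2 fold change was negative in 22, and the groups were separated in 18, all lower in ECp53KO (17.2% of genes above 0 were). The median was -0.75. Of the 20 that were tested, limma called 0 after adjustment and 12 lower before it, at p under 0.05, against 2.82% of all tested genes. Here too the filter on the mean can keep a gene through its Ctrl values alone, so the count over the 20 is no support. In the fit with no filter, 8 of the 23 were lower at an unadjusted limma p under 0.05 (3.22% of all 16809 genes were). After adjustment 0 of the 23 passed. Ckap2, a spindle microtubule protein, stood at 0.951 and 0.741 against 6.54 and 2.63 FPKM. Birc5 and Cdca8 encode parts of the chromosomal passenger complex that Kif20a carries. Birc5 stood at 4.04 and 1.1 against 9.39 and 5.52 FPKM, and Cdca8 at 0.744 and 1.38 against 5.31 and 2.32 FPKM. The groups overlapped in the other listed members of that complex, Aurkb (0.371 and 2.45 against 4.06 and 1.93 FPKM) and Incenp (2.92 and 4.75 against 5.8 and 3.79 FPKM). Cep55, which brings the scission machinery to the midbody, stood at 0.448 and 1.07 against 3.53 and 2.06 FPKM. Racgap1, the partner of Kif23, stood at 2.66 and 2.02 against 6.57 and 4.26 FPKM. Cenpe, a kinetochore kinesin whose symbol falls outside the name rule, stood at 0.214 and 0.602 against 1.52 and 0.656 FPKM. All 4 proliferation genes (4 of 4) were lower without overlap, against 17.2% of genes above 0, with a median of -1.17. By limma 0 passed adjustment, as 0.0882% of all tested genes did on the lower side. Mki67 stood at 1.11 and 1.31 against 6.63 and 2.83 FPKM, and Top2a at 2.01 and 1.49 against 6.51 and 4.37 FPKM. Ccnb1 stood at 1.46 and 0.576 against 3.77 and 2.83 FPKM, and Cdk1 at 1.87 and 1.73 against 6.03 and 3.75 FPKM. Ctrl_178 was the highest library in all 4, and in 11 of the 12 mitotic kinesins, against 4241 of the 16809 genes above 0.

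The partners of transport kinesins had medians near 0. Of 17 light chain and adaptor genes, 15 were above 0 in at least 1 library. Of these 15, 3 were lower and 3 higher without overlap, near the shares of 17.2% and 16.3% over genes above 0. The median over all 17 was -0.06. Of the 14 tested by limma, 0 passed adjustment and 1 was lower at an unadjusted p under 0.05, against 2.82% of all tested genes. That gene was Klc4, a kinesin light chain, at 12.2 and 13.4 against 17.5 and 17.2 FPKM (log2 fold change -0.42 ± 0.15 SE, unadjusted p = 0.0372, limma adjusted p = 0.864). Kifap3, which joins Kif3a and Kif3b to cargo, stood at 10.3 and 9.84 against 7.48 and 7.4 FPKM, without overlap (log2 fold change 0.39 ± 0.15 SE). The cargo adaptor genes Trak1 and Fez2 were also separated, Trak1 at 19.8 and 25.8 against 29.2 and 26.4 FPKM and Fez2 at 126 and 107 against 98.5 and 94.2 FPKM. Klc1, the most abundant light chain, stood at 87.4 and 107 against 104 and 98.2 FPKM.

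Of 24 genes of cytoplasmic dynein and dynactin, the motor that moves towards microtubule minus ends, 23 were above 0 in at least 1 library. Of these 23, 3 were lower and 4 higher without overlap, again near those shares of 17.2% and 16.3%. The median over all 24 was 0.09. Of the 21 tested by limma, 0 passed adjustment, and the 1 gene at an unadjusted p under 0.05 (1.97% of all tested genes were higher) was the light chain Dynll1, at 196 and 185 against 132 and 140.1 FPKM. The dynein subunits Dync1i2 (80.8 and 65.6 against 61.3 and 59.5 FPKM) and Dync1li1 (35.1 and 32.2 against 28.5 and 31 FPKM) were higher without overlap, and Nde1, a dynein regulator, was lower (61.9 and 55.6 against 65.2 and 78.9 FPKM). Of 13 tubulins, 2 were lower and 3 higher without overlap, also near 17.2% and 16.3%, with a median of 0.08. Of the 10 tested by limma, 0 passed adjustment and 0 had an unadjusted p under 0.05. Tuba1c stood at 1.56 and 2.53 against 3.63 and 3.24 FPKM, whereas Tuba1b stood at 102 and 76.4 against 73.3 and 62.9 FPKM. Tuba4a stood at 9.55 and 7.79 against 6.74 and 7.41 FPKM, and Tubb4b at 281 and 235.2 against 215 and 235 FPKM.

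**Figure D5:**
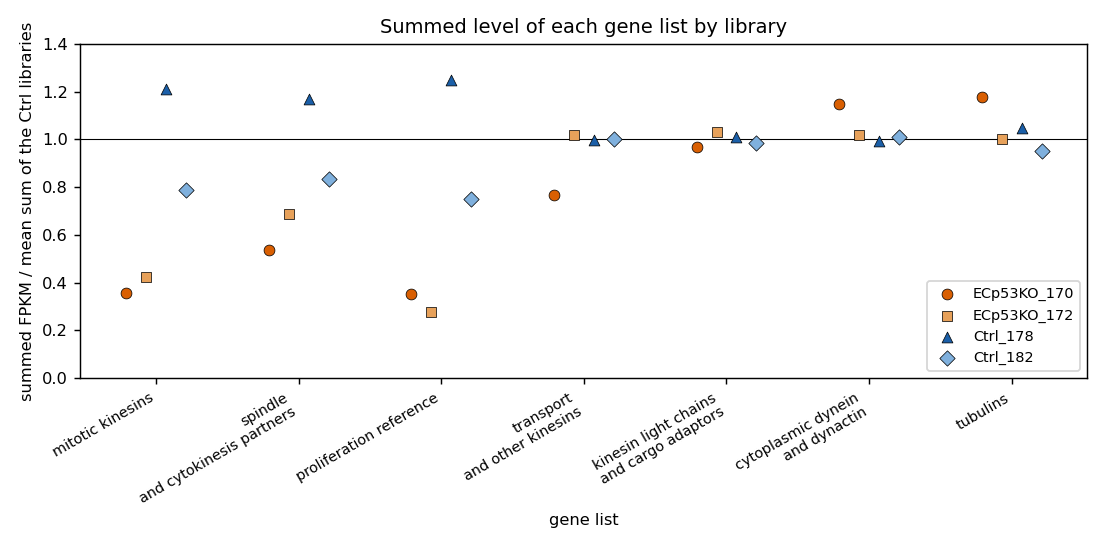
Summed FPKM of each gene list in each library, divided by the mean sum of the Ctrl libraries (y axis). The mitotic kinesins lie at 0.356 and 0.424 in ECp53KO, and the transport and other kinesins at 0.769 and 1.02.

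Markers of other cell types that heart tissue could bring into the sort are given beside these levels, and their part in the kinesin values was not tested. Leukocyte markers summed to 8.84 and 10.5 FPKM in ECp53KO and to 15 and 9.47 FPKM in Ctrl, with 7 of 11 under 1 FPKM in every library, Ptprc at 0.108 FPKM or less and Cd3e listed at 0. Erythroid markers summed to 411 and 89.3 against 60.3 and 33.5 FPKM, highest in ECp53KO_170, and 5 of 7 were higher in ECp53KO without overlap, against 16.3% of genes above 0. Cardiomyocyte markers summed to 368 and 197.5 against 197 and 181.8 FPKM. Pericyte and smooth muscle markers summed to 177.8 and 145 against 95 and 114 FPKM, with 5 of 10 higher without overlap, against the same 16.3%. Fibroblast markers summed to 29.5 to 32.9 FPKM in all 4 libraries, of which Dcn made up 16.2 to 20 FPKM. Of these 8 markers, 4 were lower and 2 higher without overlap (17.2% and 16.3% over genes above 0), among the lower ones Tcf21 at 0.318 and 0 against 1.16 and 0.928 FPKM and Postn at 1.22 and 1.93 against 3.81 and 2.26 FPKM. Endothelial markers summed to 6385 to 6736 FPKM. Of these 12 markers, 4 were lower and 4 higher without overlap, against 17.2% and 16.3% of genes above 0.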

How the data were processed

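RNA of sorted heart endothelial cells was measured in 2 ECp53KO and 2 Ctrl libraries (TruSeq, polyadenylated RNA, no strand, per the labels' protocols). The authors deposited 1 table of FPKM values. The submitters' processing notes list, with no role or order, Cufflinks 2.2.1, TopHat2 2.1.0, Trimmomatic 0.36, FastQC 0.11.5, bcl2fastq 2.17 and the build mm10. Annotation and filters: not given in the sources used here. No count model was used, because FPKM hold no counts. Genes averaging 1 FPKM or more were tested as log2(FPKM + 1) with limma 3.58.1 in R 4.3.3 (intensity trend, two-sided, Benjamini-Hochberg adjustment, threshold 0.05, 2 residual and 3.15 prior degrees of freedom, no covariate). The procedure was tested on simulated data. The planted changes were larger than the log2 fold change of any kinesin here, so that test does not show how well changes of their size are found.

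For depth, FPKM was multiplied by transcript length (GENCODE M21 basic set) in 2172 single-transcript genes longer than 2000 nucleotides and under 0.5 FPKM, and the commonest product was taken as 1 fragment. Alternatives were another pseudocount, no filter, TPM, robust shrinkage, leaving out small RNA loci, removing each library's length trend, and leaving out each library. Named were the 12 mitotic kinesins, the 5 most abundant others, others above 1 FPKM without overlap, and up to 4 genes per partner list by size of change without overlap. The other kinesins, and Racgap1, Cenpe, Aurkb, Incenp, Klc1 and single marker genes, were named in addition after their values were seen. The members and lists were chosen with earlier results of these data known, among them lower levels of G2 and mitosis genes in ECp53KO, so that pattern is not independent support. The sequences are from RefSeq, with coordinates in GRCm38.p6, the assembly that mm10 names.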

Additional observations from a re-analysis of the deposited data

How the results depend on the processing

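No paired analysis was possible because no replicate number occurs in both genotypes. Under the 15 alternatives, all 12 mitotic kinesins kept a negative log2 fold change, and 0 alternatives gave any kinesin a limma adjusted p under 0.05. The median of the mitotic kinesins, -0.73, was -1.35 with a pseudocount of 0.1, -0.98 after rescaling to TPM (which moved the median of all tested genes to -0.10) and -0.96 to -0.50 on leaving out a library. The median of the other rows, -0.06, was -0.18 with a pseudocount of 0.1 and -0.05 to 0.00 on leaving out a library. Their count lower without overlap, 6, was 8 in TPM and 10 to 16 on leaving out a library (11 without Ctrl_178), where fewer libraries must be separated. Leaving out libraries gave the same values with and without small RNA loci. That combination and a filter at 0.2 FPKM were chosen after seeing the data. The low fragment numbers of the mitotic kinesins limit the precision of each gene.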
